A study of Mus musculus with 12 samples.

Results

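The 49 genes described here were cell cycle and DNA replication genes, out of 30705 gene names in the expression table. They were taken by name from a written list, whose rule used no measured value although earlier results of these data were known when it was made, and were divided by their known roles into 24 S-phase genes and 25 mitotic genes. All 49 were found in the table. Their mean levels over the 12 samples ran from 12.1 RPKM for *E2f2* to 501 RPKM for *Pcna*, so all of them passed the minimum mean of 1 RPKM that left 11282 genes for testing. RPKM, a read count scaled to transcript length and to library total, is a level per length and can be compared between genes. RNA-seq was performed on murine BrafV600E melanoma cells grown *in vitro*, with 3 samples of the scramble control and 3 samples each of the knockout lines *ptgs1*-KO, *ptgs2*-KO, and *ptges*-KO. The parental cells came from a C57BL/6 mouse with the alleles Braf+/LSL-V600E, Tyr::CreERT2+/o (a tamoxifen-dependent Cre under the tyrosinase promoter), and p16INK4a-/-, so the scramble cells carried these alleles as well. The knockouts were made by CRISPR/Cas9, and the targeted genes code for the prostaglandin-synthesis enzymes COX-1, COX-2, and mPGES-1. The 3 samples of a line were described by the study as separate subclones, and p-values measure the spread between these samples. No treatment or time course was labelled, and tumor cells grown in animals were not analysed here.

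Cells copy their DNA in S phase and divide the copies in mitosis. Entry into S phase is driven by cyclin E with CDK2 and by E2F factors, which switch on the genes for origin licensing, the replicative helicase, and nucleotide synthesis. Entry into mitosis is driven by cyclin A and cyclin B with CDK1 and by Aurora and Polo kinases, and exit follows when the anaphase-promoting complex, APC/C, marks mitotic proteins for destruction. Transcripts of S-phase genes usually peak earlier in the cycle than those of mitotic genes, so in an unsynchronized culture both lists reflect cells at all stages. In such bulk RNA, fewer cells in a phase and less RNA per cell cannot be told apart.

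The targeted genes were checked in every sample. *Ptgs1* was at 14.3 to 16.9 RPKM in the *ptgs1*-KO samples and at 142 to 164 RPKM in the scramble samples. *Ptgs2* was at 76.1 to 84.6 RPKM in *ptgs2*-KO and at 749 to 777 RPKM in scramble samples, and *Ptges* was at 34.8 to 41.0 RPKM in *ptges*-KO and at 75.01 to 79.8 RPKM in scramble samples. All 3 lines were thus low in their own target, and *ptgs1*-KO cells were lower than scramble in the other 2 targets as well. There *Ptges* was at 51.5 to 56.9 RPKM (log2 fold change -0.50, adjusted p = 0.0011) and *Ptgs2* at 502 to 668 RPKM (-0.36, adjusted p = 0.0386). The study, with a Tukey test, reported lower *Ptges* in these cells but no reduction of *Ptgs2*. The lowest *Ptgs2* value, 502 RPKM, was in *ptgs1*-KO replicate 3, and this call was not tried with samples left out. Of 7 melanocyte markers, *Sox10*, *Tyrp1*, *Dct*, and *Mlana* were at 0 in all samples, and the 7 summed to 1.92 to 5.16 RPKM. Leukocyte markers summed to at most 0.14 RPKM and endothelial markers to at most 0.28 RPKM. *Cdkn2a*, the gene of the p16INK4a allele, was at 0.63 to 2.28 RPKM. The depth, estimated from the steps between low values, was about 13400000 to 16900000 reads per sample.

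A pair of libraries stood apart in these genes. In *ptgs1*-KO replicate 3 a single transcript, *AK155692*, held 8.24% of the summed values, against 2.84% to 4.28% for the highest gene of the other samples, and this sample was the lowest of the 12 for 21 members. Scramble replicate 2 was the lowest for 13 members. Counts against scramble are also given without scramble replicate 2, and counts against *ptgs1*-KO without *ptgs1*-KO replicate 3.

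In *ptgs2*-KO and *ptges*-KO cells, the members that passed the test were mostly higher than in scramble cells, in both lists. Fitted folds were 1.19 to 1.37 for those that rose. The share of mitotic genes that passed was below that of all genes in both lines. In *ptgs1*-KO cells few members passed, and the cyclin gene *Ccna2* fell. Against scramble cells, 2 of 49 members changed in *ptgs1*-KO cells (limma, with a threshold of 0.05 on the adjusted p, corrected for all 11282 tested genes by Benjamini-Hochberg), where 9.26% of all genes tested changed. *E2f1* rose, where 4.65% of all genes rose, and *Ccna2* fell, where 4.61% fell. In *ptgs2*-KO cells 9 of 49 changed, or 18.4%, beside 11.1% of all genes, and all 9 rose, where 5.97% of all genes rose and 5.17% fell. In *ptges*-KO cells 17 of 49 changed, or 34.7%, beside 26.3% of all genes. Of these, 15 rose (30.6%, beside 11.9% of all genes) and 2 fell (4.08%, beside 14.4%). These 3 comparisons share the same scramble samples, so their counts are not independent of each other.

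The lists differed in their counts. Of the 24 S-phase genes, 1 rose in *ptgs1*-KO cells and 7 rose in *ptgs2*-KO cells. In *ptges*-KO cells 10 of the 24 rose and 2 fell. Of the 25 mitotic genes, *ptgs1*-KO cells had 1 that fell, *ptgs2*-KO cells had 2 that rose, and *ptges*-KO cells had 5 that rose. The S-phase shares that changed were 4.17%, 29.2%, and 50%, and the mitotic shares 4%, 8%, and 20%. Of all genes, 9.26%, 11.1%, and 26.3% changed. The mitotic genes that rose, 8% in *ptgs2*-KO and 20% in *ptges*-KO cells, stood beside 5.97% and 11.9% of all genes. Without scramble replicate 2, the S-phase genes that changed were 0, 1, and 7 in the same order, and the mitotic genes 1, 0, and 1. With that sample left out, 5.83%, 6.83%, and 19.5% of all genes changed. The difference between the lists was not tested. The median log2 fold change of the S-phase genes was 0.01 for *ptgs1*-KO, 0.15 for *ptgs2*-KO, and 0.21 for *ptges*-KO, and that of the mitotic genes was -0.03, 0.12, and 0.11, respectively. The median over all genes tested was 0.01, 0.01, and -0.03. In *ptges*-KO cells, 21 of 24 S-phase and 20 of 25 mitotic genes had an estimate above 0, whether or not they passed the test. An adjusted p that misses the threshold, here and below, does not show that a level was the same in both lines.

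**Figure D1:**
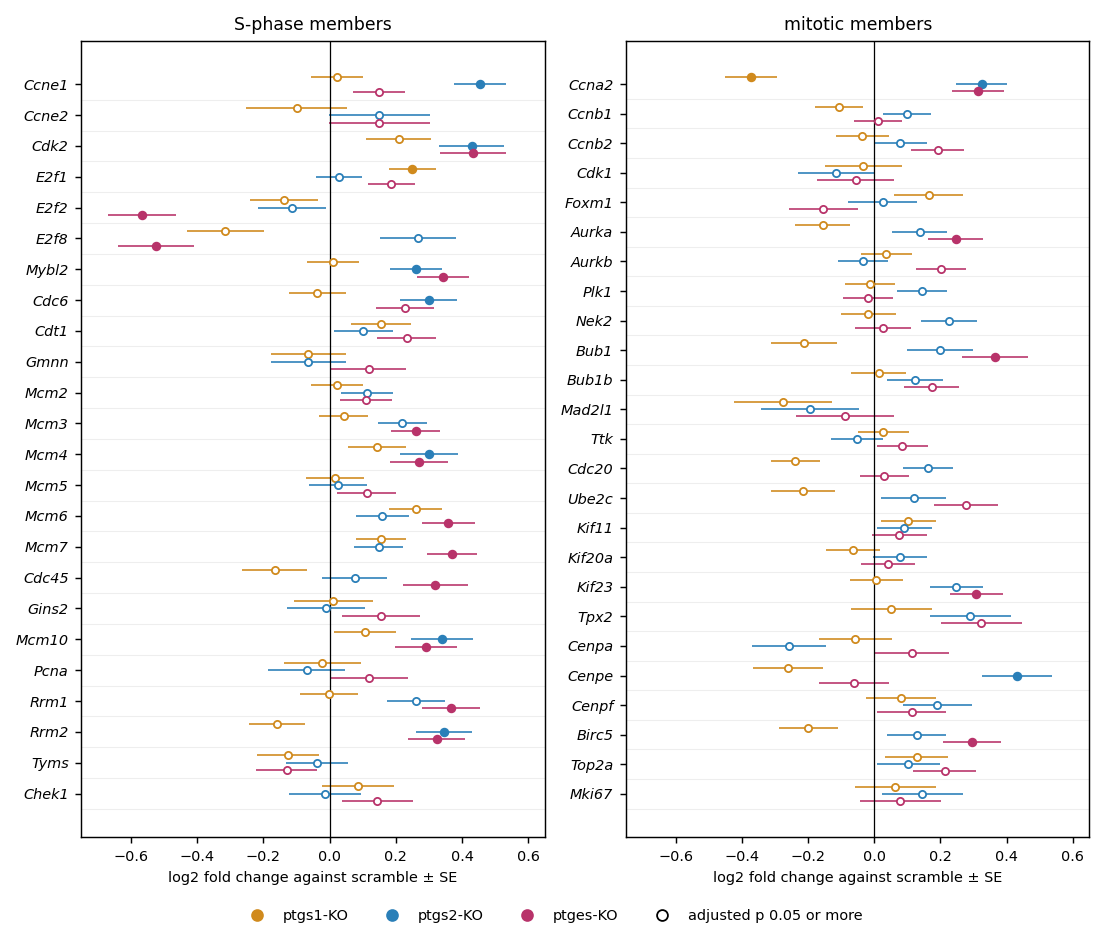
Log2 fold change against scramble cells of each of the 24 S-phase (left) and 25 mitotic genes (right) in the 3 knockout lines, on log2(RPKM + 1), as the estimate (point) ± SE (line); filled points have an adjusted p under 0.05. Most filled points of *ptgs2*-KO and *ptges*-KO lie right of 0, and *E2f2* and *E2f8* of *ptges*-KO and *Ccna2* of *ptgs1*-KO lie left.

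These counts depended on single samples. Against the 9 members in *ptgs2*-KO cells, 2 changed without scramble replicate 1, 1 without scramble replicate 2, and 5 without scramble replicate 3. The count was 2, 4, and 5 without *ptgs2*-KO replicates 1, 2, and 3, and 5 without *ptges*-KO replicate 2. Against the 17 in *ptges*-KO cells, 8 changed without scramble replicate 2 and 10 without scramble replicate 3. In *ptgs1*-KO cells, the count fell from 2 to 1 without any of the 3 scramble replicates, *ptgs2*-KO replicate 2, *ptges*-KO replicate 2, or *ptges*-KO replicate 3, and was 3 without *ptgs1*-KO replicate 3. Scaling by the median ratio sets the median of the expressed genes equal between samples. After it, the 3 comparisons gave 4, 13, and 26 members in the same order as above, beside 13.5%, 17.1%, and 33% of all genes. With this scaling and without scramble replicate 2, an alternative chosen after the data were seen, the counts were 3, 10, and 21.

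**Figure D2:**
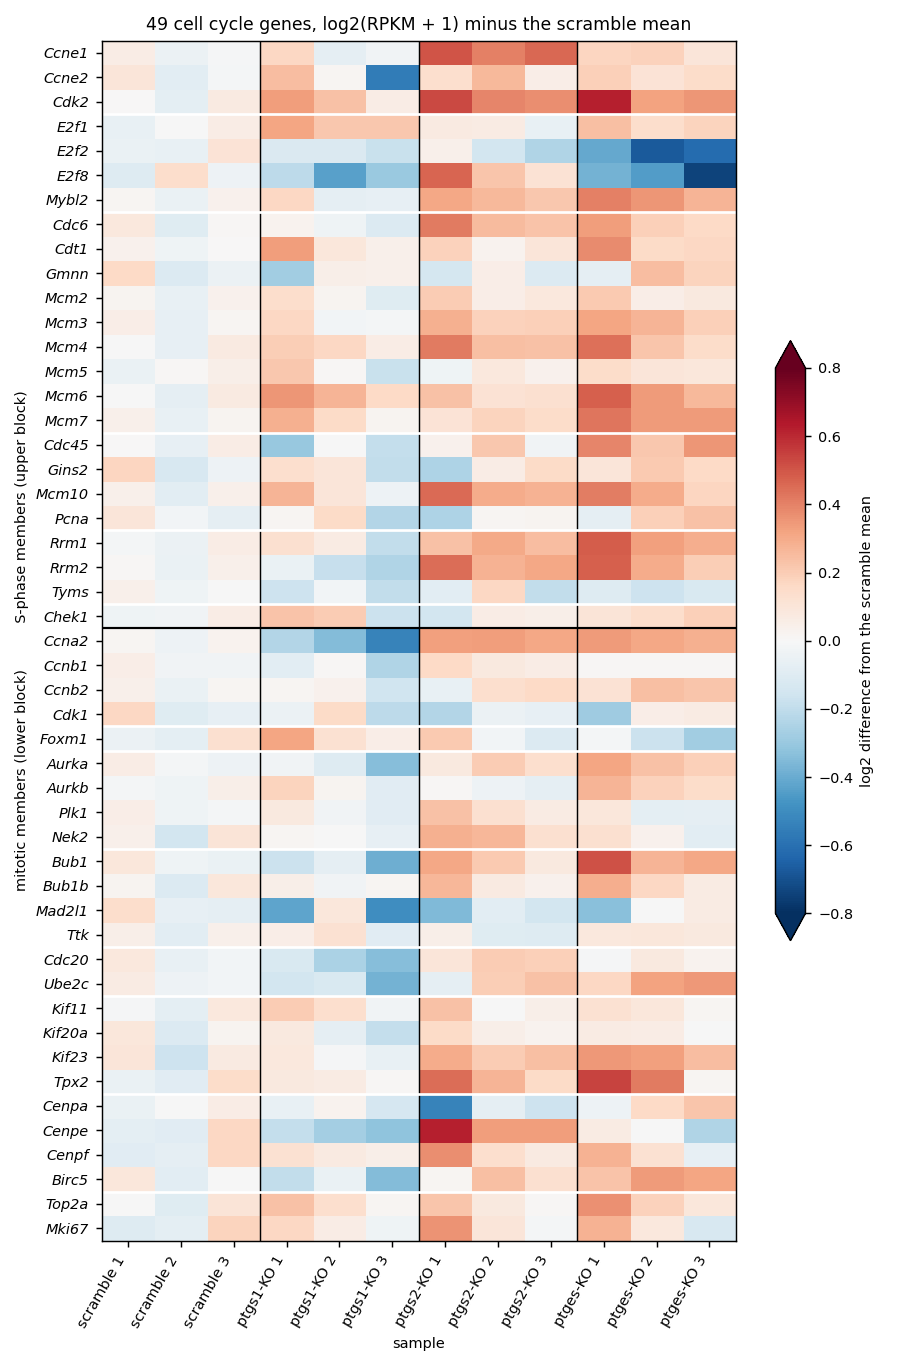
Level of the 49 members (rows) in the 12 samples (columns), as the difference of log2(RPKM + 1) from the scramble mean of that gene, red above and blue below; the black row line parts the S-phase from the mitotic genes and white lines part their roles. The *ptgs2*-KO and *ptges*-KO columns are red for most rows, and *E2f2* and *E2f8* are blue in all 3 *ptges*-KO samples.

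Promoter sequence, which the choice of genes did not use, held different motifs in the lists, as a description with no test. RefSeq promoters (GRCm38.p6, 250 bases before to 50 bases after the start) were found for 40 of the 49 members and gave 22 promoters of S-phase and 20 of mitotic genes. *Gins2*, *Foxm1*, *Mcm4*, *Ccna2*, *Tpx2*, *Kif20a*, *Gmnn*, *Ccne2*, and *Aurkb* had no entry in the table. E2F motifs (TTTGGCGC, TTTCGCGC, TTTCCCGC, or TTTGCCGC on either strand) were in 8 of 22 S-phase promoters (36.4%), in 1 of 20 mitotic promoters (5%), and in 2.26% of all 32851 promoters. The letters TTTGAA of the cell cycle homology region, CHR, on either strand, were in 14 of 20 mitotic promoters (70%), 4 of 22 S-phase promoters (18.2%), and 17.9% of all promoters. CCAAT, on either strand, was in 90% of mitotic, 68.2% of S-phase, and 37.4% of all promoters. E2F motifs are the letters bound by E2F factors, and CHR and CCAAT elements are known from genes expressed late in the cycle. Median GC content was 58.3%, 57.5%, and 52.7%, in the same order.

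The 250 bases before the start of 3 S-phase genes with an E2F motif are shown 5′ to 3′ on the gene's strand, since *Cdk2*, *Cdc6*, and *Mcm6* each changed in at least 1 line. Capitals mark E2F, CHR, and CCAAT letters.
Cdk2, chr10:128705052-128705301, minus strand: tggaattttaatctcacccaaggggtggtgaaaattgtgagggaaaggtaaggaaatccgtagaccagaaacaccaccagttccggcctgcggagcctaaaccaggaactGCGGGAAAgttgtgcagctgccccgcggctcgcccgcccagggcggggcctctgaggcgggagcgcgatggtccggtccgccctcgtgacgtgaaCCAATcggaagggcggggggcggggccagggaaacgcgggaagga
Cdc6, chr11:98907901-98908150, plus strand: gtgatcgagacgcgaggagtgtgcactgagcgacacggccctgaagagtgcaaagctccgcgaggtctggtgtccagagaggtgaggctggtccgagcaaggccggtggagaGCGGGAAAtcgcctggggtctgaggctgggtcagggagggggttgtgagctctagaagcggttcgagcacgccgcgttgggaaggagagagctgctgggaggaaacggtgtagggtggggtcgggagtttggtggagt
Mcm6, chr1:128359706-128359955, minus strand: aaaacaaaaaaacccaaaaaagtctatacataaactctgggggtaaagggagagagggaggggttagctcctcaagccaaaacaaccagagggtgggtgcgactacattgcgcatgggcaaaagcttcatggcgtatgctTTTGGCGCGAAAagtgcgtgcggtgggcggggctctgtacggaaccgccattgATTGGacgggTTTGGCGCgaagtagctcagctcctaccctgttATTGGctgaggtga
In *Cdk2* and *Cdc6* the motif was TTTCCCGC on the opposite strand, with its first base at -140 and -138 from the RefSeq start. In GENCODE M21 the *Cdc6* gene begins earlier, at chr11:98907801, so its printed bases lie after that start. *Mcm6* held 3 E2F matches, at -110, -106, and -47, and the matches at -110 and -106 overlap on opposite strands.

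A pair of mitotic genes and 1 S-phase gene with a CHR are shown in the same way, since *Cdc20*, *Ube2c*, and *E2f8* each differed between knockout lines.
Cdc20, chr4:118437344-118437593, minus strand: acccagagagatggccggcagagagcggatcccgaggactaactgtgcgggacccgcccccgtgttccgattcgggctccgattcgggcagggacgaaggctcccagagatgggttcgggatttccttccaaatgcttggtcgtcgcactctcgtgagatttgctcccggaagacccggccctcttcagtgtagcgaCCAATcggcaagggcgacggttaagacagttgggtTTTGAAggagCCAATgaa
Ube2c, chr2:164769679-164769928, plus strand: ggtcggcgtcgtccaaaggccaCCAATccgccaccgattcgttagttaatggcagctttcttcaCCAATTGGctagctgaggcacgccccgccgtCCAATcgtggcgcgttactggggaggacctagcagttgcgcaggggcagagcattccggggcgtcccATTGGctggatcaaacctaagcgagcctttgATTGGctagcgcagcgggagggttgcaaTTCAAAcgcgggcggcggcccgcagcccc
E2f8, chr7:48881597-48881846, minus strand: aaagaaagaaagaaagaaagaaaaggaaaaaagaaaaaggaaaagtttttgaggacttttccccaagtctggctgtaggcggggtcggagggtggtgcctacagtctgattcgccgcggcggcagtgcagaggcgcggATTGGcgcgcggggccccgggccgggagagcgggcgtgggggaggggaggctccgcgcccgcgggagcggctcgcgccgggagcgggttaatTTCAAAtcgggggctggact
The CHR lay close to the start in all 3, at -18 in *Cdc20*, -29 in *Ube2c*, and -20 in *E2f8*. *E2f8* was thus an S-phase gene with a CHR and without any of the E2F letters searched here in this window. Other spellings of the E2F motif were not searched, so an E2F site is not excluded. A match describes the letters and is not evidence of binding.

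Among the G1/S cyclins and their kinase, *Ccne1* (cyclin E1) and *Cdk2* (its kinase partner) changed and *Ccne2* (cyclin E2) did not pass in any comparison. *Ccne1* was at 28.1, 25.9, and 26.6 RPKM in scramble, 30.2, 25.5, and 26.4 RPKM in *ptgs1*-KO, 38.4, 35.9, and 37.2 RPKM in *ptgs2*-KO, and 30.3, 30.6, and 28.8 RPKM in *ptges*-KO samples. All *ptgs2*-KO samples were above all other samples. The log2 fold change of *Ccne1* against scramble was 0.45 ± 0.08 (SE) with an adjusted p of 0.0027, a call that held in all 23 alternatives tried. *Cdk2* was at 28.3, 26.6, and 29.7 RPKM in scramble, 41.0, 37.2, and 36.7 RPKM in *ptgs2*-KO, and 43.8, 35.5, and 36.3 RPKM in *ptges*-KO samples, without overlap with scramble. It rose by 0.43 ± 0.10 in *ptgs2*-KO cells (adjusted p = 0.0137) and by 0.43 ± 0.10 in *ptges*-KO cells (adjusted p = 0.00624). In *ptgs1*-KO cells it was at 29.3 to 35.7 RPKM, and the log2 fold change of 0.21 did not pass (adjusted p = 0.223). *Ccne2* ranged from 22.8 to 40.9 RPKM, and both its lowest and its highest *ptgs1*-KO samples lay outside the scramble range.

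The 4 transcription factors of the S-phase list did not move together. *E2f2*, an activating E2F and the lowest of all members, was at 13.4, 13.3, and 15.1 RPKM in scramble, 12.7, 12.8, and 12.2 RPKM in *ptgs1*-KO, 14.4, 12.5, and 11.6 RPKM in *ptgs2*-KO, and 10.2, 8.34, and 8.72 RPKM in *ptges*-KO samples. The *ptges*-KO samples were the 3 lowest, and the gene fell by 0.57 ± 0.10 on the log2 scale (adjusted p = 0.0016, held in all 23 alternatives). *E2f8*, an atypical E2F that represses transcription, was at 50.3, 59.7, and 52.5 RPKM in scramble and at 41.2, 39.3, and 31.9 RPKM in *ptges*-KO samples, where it fell by 0.52 ± 0.12 (adjusted p = 0.00529). In *ptgs2*-KO samples *E2f8* was at 74.9, 63.2, and 58.6 RPKM, and in *ptgs1*-KO samples at 46.5, 39.7, and 43.8 RPKM. Neither passed against scramble, with log2 fold changes of 0.27 and -0.31 (adjusted p = 0.157 and 0.116). *E2f8* was the member with the widest range, its highest sample being 2.35 times its lowest. *E2f1*, the best-known activating E2F, rose in *ptgs1*-KO cells, from 41.5, 43.1, and 45.1 RPKM in scramble to 54.1, 50.3, and 50.4 RPKM. The log2 fold change was 0.25 ± 0.07 (adjusted p = 0.0414), and the call held in 10 of 23 alternatives. *Mybl2*, which codes for B-MYB, a factor for late cell cycle genes, rose in *ptges*-KO cells by 0.34 ± 0.08 (adjusted p = 0.00644), from 47.1 to 50.03 RPKM in scramble to 59.1 to 64.8 RPKM. It also rose in *ptgs2*-KO cells, to 56.8 to 60.8 RPKM (log2 fold change 0.26, adjusted p = 0.0484), a call that held in 11 of 23 alternatives.

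Of the 9 origin-licensing genes, 4 rose in *ptges*-KO cells and 2 in *ptgs2*-KO cells, and none fell in a knockout line. *Mcm2* to *Mcm7* code for the subunits of the replicative helicase. *Mcm7* was at 235, 219, and 232 RPKM in scramble, 278, 254, and 232 RPKM in *ptgs1*-KO, 247, 259, and 253 RPKM in *ptgs2*-KO, and 307, 289, and 289.6 RPKM in *ptges*-KO samples. The *ptges*-KO samples were the highest, and *Mcm7* rose there by 0.37 ± 0.08 (adjusted p = 0.0033, held in all 23 alternatives). *Mcm6* rose by 0.36 ± 0.08 in *ptges*-KO cells (adjusted p = 0.00582), from 244, 232, and 257 RPKM in scramble to 340.1, 309, and 292 RPKM. In *ptgs1*-KO samples *Mcm6* was at 311, 295, and 272 RPKM, all above scramble, and missed the threshold (log2 fold change 0.26, adjusted p = 0.0632). *Mcm3* and *Mcm4* rose in *ptges*-KO cells by 0.26 and 0.27 (adjusted p = 0.0214 and 0.0372), and *Mcm4* rose in *ptgs2*-KO cells by 0.30 (adjusted p = 0.0439). *Mcm2* and *Mcm5* passed in no comparison, with means of 191 to 207 RPKM and 149 to 161 RPKM over the 4 lines. The helicase genes thus did not all pass the test. All 6 had *ptges*-KO samples wholly above the scramble samples, but how many of all genes tested did so was not counted. *Cdc6*, which loads the helicase on origins, was at 20.6, 18.1, and 19.5 RPKM in scramble and 26.1, 23.3, and 22.9 RPKM in *ptgs2*-KO samples, a rise of 0.30 ± 0.09 (adjusted p = 0.0424). In *ptges*-KO cells *Cdc6* was at 21.7 to 24.7 RPKM (log2 fold change 0.23, adjusted p = 0.0705). *Cdt1*, the other loader, and *Gmnn*, which codes for its inhibitor geminin, did not pass in any comparison.

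Of the 4 genes for origin firing and the replication fork, *Cdc45* and *Mcm10* changed. *Cdc45*, a partner of the active helicase, was at 20.1, 19.1, and 20.9 RPKM in scramble and 26.5, 23.4, and 25.8 RPKM in *ptges*-KO samples, and rose by 0.32 ± 0.10 (adjusted p = 0.0296). *Mcm10*, needed to activate the helicase, was at 44.6 to 48.8 RPKM in scramble samples. It rose to 57.5 to 65.1 RPKM in *ptgs2*-KO cells (log2 fold change 0.34, adjusted p = 0.0335) and to 53.4 to 63.1 RPKM in *ptges*-KO cells (0.29, adjusted p = 0.0355). *Gins2*, a subunit of the same helicase complex, and *Pcna*, the sliding clamp of DNA polymerases, did not pass. *Pcna* was the most abundant member and spread from 418 to 584 RPKM, with overlap between all 4 lines.

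For nucleotide supply, both subunit genes of ribonucleotide reductase rose and thymidylate synthase did not pass. *Rrm2* was at 131, 125, and 134 RPKM in scramble, 125, 114, and 109.8 RPKM in *ptgs1*-KO, 178, 158, and 162 RPKM in *ptgs2*-KO, and 182, 159.7, and 149 RPKM in *ptges*-KO samples. It rose by 0.35 ± 0.09 in *ptgs2*-KO (adjusted p = 0.0198) and by 0.32 ± 0.09 in *ptges*-KO cells (adjusted p = 0.014). *Rrm1* rose in *ptges*-KO cells by 0.37 ± 0.09 (adjusted p = 0.0084), from 148, 145, and 156 RPKM to 209, 188, and 183 RPKM. In *ptgs2*-KO samples *Rrm1* was at 176 to 184 RPKM, above all scramble samples, with a log2 fold change of 0.26 that did not pass (adjusted p = 0.0747). *Tyms* was at 23.2 to 30.01 RPKM over all samples and *Chek1*, the replication checkpoint kinase, at 13.1 to 17.6 RPKM, and neither passed in any comparison.

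Among the mitotic genes, *Ccna2* (cyclin A2, which acts in S phase with CDK2 and later with CDK1) was the member that changed in all 3 knockout lines. It was at 315, 303, and 319 RPKM in scramble, 266, 245, and 215 RPKM in *ptgs1*-KO, 393, 395, and 387 RPKM in *ptgs2*-KO, and 397, 388, and 381 RPKM in *ptges*-KO samples. The *ptgs1*-KO samples were the 3 lowest, the scramble samples lay in the middle, and the *ptgs2*-KO and *ptges*-KO samples overlapped at the top. *Ccna2* fell by 0.37 ± 0.08 in *ptgs1*-KO cells (adjusted p = 0.00847, held in all 23 alternatives). It rose by 0.32 ± 0.08 in *ptgs2*-KO cells (adjusted p = 0.0172, held in 20) and by 0.31 ± 0.08 in *ptges*-KO cells (adjusted p = 0.0101, held in all 23). The gene lies on chr3:36564865-36572150, minus strand (GENCODE M21, GRCm38). *Ccnb1* and *Ccnb2* (B-type cyclins) and *Cdk1* did not pass against scramble in any line. *Cdk1* was at 106 to 146 RPKM, with overlap between all lines.

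**Figure D3:**
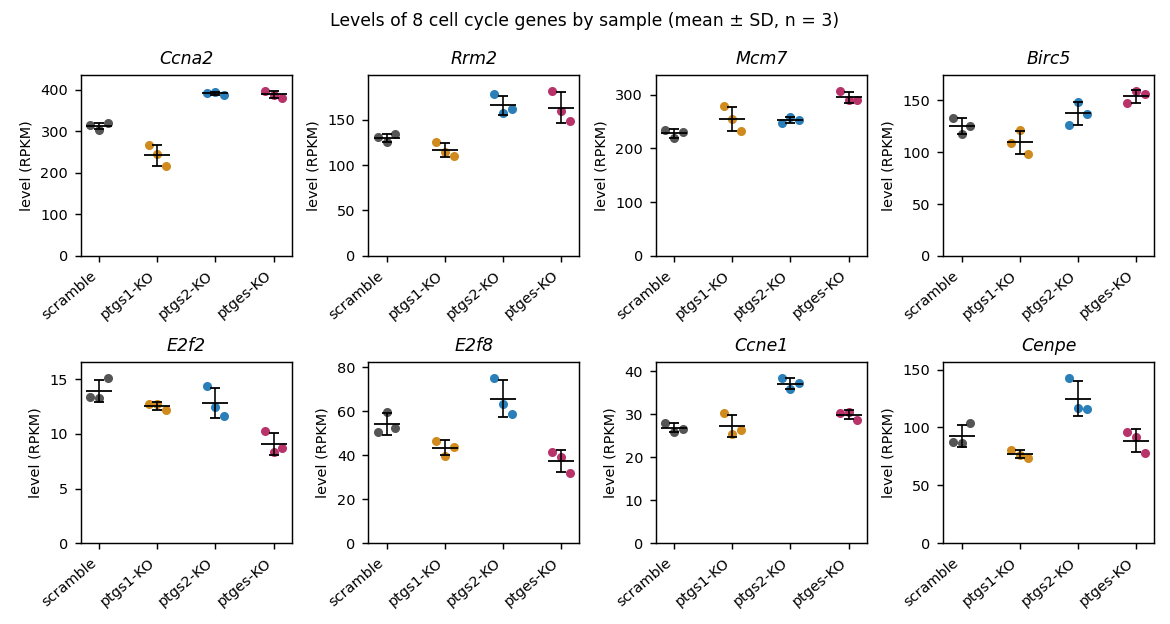
Level in RPKM (y axis, from 0) of 8 members in each sample (points) of the 4 lines, with the mean and SD (horizontal line and bars, n = 3). *Ccna2* is lowest in *ptgs1*-KO, *Rrm2* high in *ptgs2*-KO and *ptges*-KO, *Mcm7* and *Birc5* highest in *ptges*-KO, *E2f2* and *E2f8* lowest on average in *ptges*-KO, and *Ccne1* and *Cenpe* highest in *ptgs2*-KO.

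Of the 4 mitotic kinases, *Aurka* rose in *ptges*-KO cells. *Aurka* (Aurora A, of the spindle poles) was at 110.0, 105, and 103 RPKM in scramble and 132, 124, and 121 RPKM in *ptges*-KO samples (log2 fold change 0.25 ± 0.08, adjusted p = 0.0456, held in 11 of 23 alternatives). *Aurkb* (Aurora B, of the centromere) was at 104 to 114 RPKM in *ptges*-KO samples, above the scramble range of 92.0 to 97.3 RPKM, but did not pass (adjusted p = 0.0671). *Plk1* (Polo kinase) and *Nek2* (a kinase of centrosome separation) passed in no comparison. Among the 4 spindle checkpoint genes, *Bub1* rose in *ptges*-KO cells. It was at 32.6, 29.8, and 29.4 RPKM in scramble and 44.0, 37.1, and 38.2 RPKM in *ptges*-KO samples (0.37 ± 0.10, adjusted p = 0.0172). *Bub1b*, *Mad2l1*, and *Ttk*, which code for other proteins of the same checkpoint, passed in no comparison.

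Among the genes of the spindle and of cell division, *Kif23*, a kinesin of the central spindle, rose in *ptges*-KO cells. It was at 84.7, 70.5, and 83.4 RPKM in scramble and 101, 99.9, and 94.3 RPKM in *ptges*-KO samples (0.31 ± 0.08, adjusted p = 0.0127). The scramble sample of 70.5 RPKM was replicate 2. The kinesin genes *Kif11* and *Kif20a* and the spindle assembly gene *Tpx2* passed in no comparison. *Birc5* (survivin, a partner of Aurora B in the passenger complex) rose in *ptges*-KO cells from 133, 118, and 125 RPKM to 147, 159, and 156 RPKM (0.29 ± 0.09, adjusted p = 0.0261). *Cenpe*, a motor that links chromosomes to the spindle, was at 87.3, 86.3, and 104 RPKM in scramble, 80.5, 76.2, and 73.5 RPKM in *ptgs1*-KO, 143, 116, and 116 RPKM in *ptgs2*-KO, and 96.4, 91.7, and 78.0 RPKM in *ptges*-KO samples. It rose in *ptgs2*-KO cells by 0.43 ± 0.11 (adjusted p = 0.0195). *Cenpf*, a kinetochore gene, passed in no comparison. *Top2a* and *Mki67*, which organize mitotic chromosomes, were among the most abundant members at means of 367 and 365 RPKM over all samples and passed in no comparison. *Mki67*, the gene of the proliferation marker Ki-67, was at 322 to 390.0 RPKM in scramble, 337 to 387 RPKM in *ptgs1*-KO, 341 to 443 RPKM in *ptgs2*-KO, and 316 to 419 RPKM in *ptges*-KO samples, with overlap between all lines.

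The knockout lines were also compared with each other. In *ptgs2*-KO against *ptgs1*-KO cells, 15 of 49 members changed (30.6%, beside 23.6% of all genes), of which 14 were higher (28.6%, beside 12.1%) and 1, *E2f1*, was lower. The mitotic list held 8 of the 14 and the S-phase list 6. *Ccna2* differed most, with a log2 fold change of 0.70 ± 0.08 (adjusted p = 2.82e-05), followed by *Cenpe* at 0.69 ± 0.11 (adjusted p = 0.000388), *E2f8* at 0.58 ± 0.12 (adjusted p = 0.00255), and *Rrm2* at 0.50 ± 0.09 (adjusted p = 0.000808). *Ccne1*, *Mybl2*, *Cdc6*, and *Rrm1* of the S-phase list were higher by 0.43, 0.25, 0.34, and 0.26. *Aurka*, *Bub1*, *Cdc20*, *Ube2c*, *Kif23*, and *Birc5* of the mitotic list were higher by 0.29, 0.41, 0.40, 0.33, 0.24, and 0.33. *E2f1* was lower by a log2 fold change of -0.22 (adjusted p = 0.0359). *Rrm1* and *Kif23* were the least stable of these calls, held in 9 and 11 of 23 alternatives. Without *ptgs1*-KO replicate 3 the count was 9, and the calls of *Mybl2*, *Rrm1*, *Aurka*, *Ube2c*, *Kif23*, and *Birc5* were lost. Without *ptgs2*-KO replicate 2 the count was 8.

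Both APC/C genes were lower in *ptgs1*-KO cells than in the other knockout lines, although the *Ube2c* call against *ptgs2*-KO cells was lost without *ptgs1*-KO replicate 3. *Cdc20*, the activator of the complex, was at 226, 206, and 194 RPKM in *ptgs1*-KO, 263, 283, and 280.2 RPKM in *ptgs2*-KO, and 244, 259, and 250.3 RPKM in *ptges*-KO samples, and at 260.4, 235, and 242 RPKM in scramble samples. *Ube2c*, the ubiquitin-conjugating enzyme of the complex, was at 239, 243, and 204 RPKM in *ptgs1*-KO, 252, 303, and 311 RPKM in *ptgs2*-KO, and 296, 331, and 337 RPKM in *ptges*-KO samples, and at 257 to 277 RPKM in scramble samples. Neither gene passed against scramble in any line. The nearest were *Ube2c* in *ptges*-KO cells (log2 fold change 0.28, adjusted p = 0.0502) and *Cdc20* in *ptgs1*-KO cells (-0.24, adjusted p = 0.0659).

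In *ptges*-KO against *ptgs1*-KO cells, 17 of 49 members changed (34.7%, beside 30.2% of all genes). Of these, 15 were higher (30.6%, beside 13.2%) and 2 were lower (4.08%, beside 17%). *Ccna2* was higher by 0.69 ± 0.08 (adjusted p = 2.46e-05), *Bub1* by 0.58 ± 0.10 (adjusted p = 0.000839), *Ube2c* by 0.49 ± 0.10 (adjusted p = 0.00203), *Birc5* by 0.49 ± 0.09 (adjusted p = 0.00101), and *Cdc45* by 0.49 ± 0.10 (adjusted p = 0.00239). *Rrm2*, *Rrm1*, *Mybl2*, *Cdc6*, *Mcm3*, and *Mcm7* were higher by 0.48, 0.37, 0.33, 0.26, 0.22, and 0.22, and *Ccnb2*, *Aurka*, *Cdc20*, and *Kif23* by 0.23, 0.40, 0.27, and 0.30. The calls of *Ccnb2*, *Mcm3*, and *Mcm7* were the least stable, held in 8, 9, and 9 of 23 alternatives. The lower genes were *E2f2* (-0.43, adjusted p = 0.00705) and *Foxm1* (-0.32, adjusted p = 0.034). *Foxm1*, the factor that activates mitotic genes, was at 231, 202, and 193 RPKM in *ptgs1*-KO and 184, 165, and 153 RPKM in *ptges*-KO samples, with scramble samples at 176 to 203 RPKM. It was thus the mitotic member lower in *ptges*-KO cells while 8 other mitotic members were higher. Without *ptgs1*-KO replicate 3 the count was 13, and the calls of *Cdc6*, *Mcm3*, *Mcm7*, and *Ccnb2* were lost. Without *ptges*-KO replicate 2 the count was 11.

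In *ptges*-KO against *ptgs2*-KO cells, 5 of 49 members changed (10.2%, beside 16.6% of all genes), 1 higher (2.04%, beside 6.76%) and 4 lower (8.16%, beside 9.84%). *E2f8* was lower by a log2 fold change of -0.79 ± 0.12 (adjusted p = 0.000414, held in all 23 alternatives), to 57.2% of its *ptgs2*-KO mean. *Cenpe* was lower (-0.49 ± 0.11, adjusted p = 0.00681), as were *E2f2* (-0.45 ± 0.10, adjusted p = 0.00893) and *Ccne1* (-0.31 ± 0.08, adjusted p = 0.0182). *Cenpa*, the centromeric histone H3 variant, was higher, at 50.5, 58.1, and 60.8 RPKM against 35.6, 49.3, and 46.2 RPKM (0.37 ± 0.11, adjusted p = 0.0368). The split of this comparison depended on the scaling: by the median ratio 7 members were higher and 4 lower, and by quantile normalization 6 were higher and 4 lower. The count was 3 without *ptgs2*-KO replicate 1, 2 without *ptges*-KO replicate 2, and 3 without *ptges*-KO replicate 3. With the replicate number as a block the count was 6, with *Aurkb* added (adjusted p = 0.0393 with the block and 0.0501 without it).

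Over all 6 comparisons, 15 of 24 S-phase genes and 11 of 25 mitotic genes changed in at least 1, and 23 members changed in none. The 26 that changed were 53.1% of the members, beside 48.5% of all genes tested that changed in at least 1 comparison. Every call was on groups whose samples did not overlap. Some differences that did not pass were also without overlap, such as *Mcm2* and *Mcm5* in *ptges*-KO against scramble. How many of all genes tested had no overlap was not counted, so this does not strengthen the calls. Of the 65 calls, 20 held in all 23 alternatives, and none changed direction in any of them.

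The mean of each list was also taken in each sample. As deposited, the geometric mean of the S-phase genes was 60.4 to 63.7 RPKM in scramble, 58.3 to 67.5 RPKM in *ptgs1*-KO, 67.9 to 70.7 RPKM in *ptgs2*-KO, and 67.9 to 73.0 RPKM in *ptges*-KO samples. That of the mitotic genes was 111 to 120.4 RPKM, 103 to 117 RPKM, 122 to 129 RPKM, and 123 to 130.3 RPKM, in the same order. After median-ratio scaling the mean log2 level of the mitotic genes was 6.79 to 6.81 in *ptgs1*-KO, 6.85 to 6.90 in scramble, 6.95 to 6.97 in *ptgs2*-KO, and 7.005 to 7.05 in *ptges*-KO samples, without overlap between lines. The S-phase mean was 5.97 to 6.01 in both scramble and *ptgs1*-KO, 6.11 to 6.13 in *ptgs2*-KO, and 6.16 to 6.19 in *ptges*-KO samples. The difference between the lists within a sample (mitotic minus S-phase), which barely depends on the scaling of that sample, was 0.78 to 0.84 in *ptgs1*-KO and 0.87 to 0.91 in scramble samples on the log2 scale as deposited. It was 0.83 to 0.85 in *ptgs2*-KO and 0.83 to 0.89 in *ptges*-KO samples. These means are a description and were not tested.

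**Figure D4:**
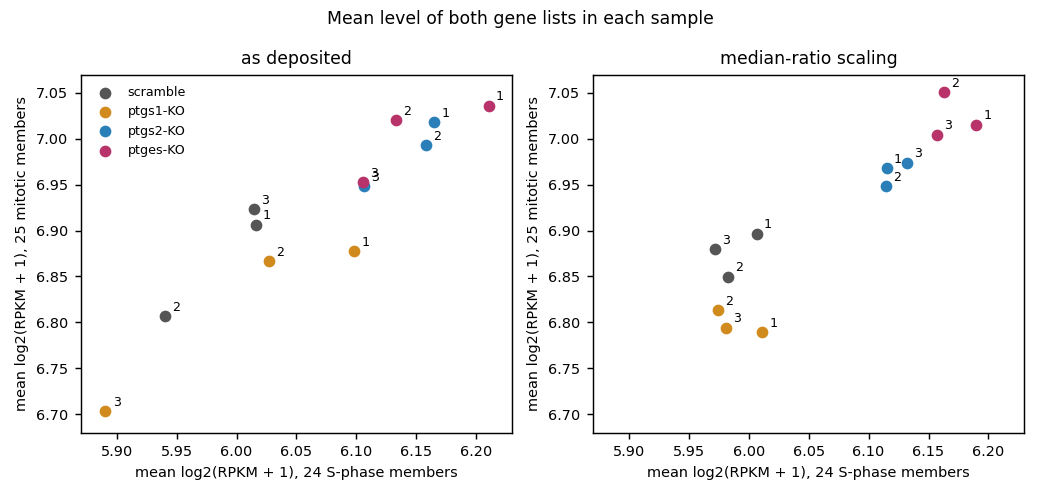
Mean log2(RPKM + 1) of the 24 S-phase genes (x axis) and of the 25 mitotic genes (y axis) in each of the 12 samples, as deposited (left) and after median-ratio scaling (right); colors mark lines and numbers mark replicates. On the right the 3 samples of each line lie together, with *ptgs1*-KO below scramble on the mitotic axis and *ptgs2*-KO and *ptges*-KO above and to the right of both.

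Variation within lines was described by the correlation between members. The mean correlation between pairs of members, over deviations from the line means (12 samples in 4 lines, 8 degrees of freedom), was 0.36 among S-phase genes and 0.34 among mitotic genes as deposited, beside 0.15 for all genes tested. After median-ratio scaling it was 0.06 and 0.02, beside 0.00306 for all genes. The points share their library and its scaling, so these values are a description.

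Other genes of the same pathways were counted from lists of their own. Of 49 other replication genes, none passed in *ptgs1*-KO cells (limma; 6 had an unadjusted p under 0.05), 2 rose in *ptgs2*-KO cells, and 13 rose and 1 fell in *ptges*-KO cells. These were 0%, 4.08%, and 28.6% of the list, beside 9.26%, 11.1%, and 26.3% of all genes, and without scramble replicate 2 the *ptges*-KO count was 5, all higher (10.2%, beside 19.5% of all genes). *Chaf1b*, a chaperone subunit that deposits histones on new DNA, had the largest rise of those that passed in *ptges*-KO cells, from 23.3, 22.5, and 24.4 RPKM to 33.0, 35.1, and 36.9 RPKM (0.56, adjusted p = 0.000437). *Rfc4*, a subunit of the clamp loader, fell by 0.33 (adjusted p = 0.0428). *Orc2*, of the origin recognition complex, had the larger rise of the 2 that passed in *ptgs2*-KO cells (0.37, adjusted p = 0.0108). Of 49 other mitotic genes tested, 5 fell in *ptgs1*-KO cells, 2 rose and 1 fell in *ptgs2*-KO cells, and 15 rose in *ptges*-KO cells. These were 10.2%, 6.12%, and 30.6% of the list. Without scramble replicate 2 the counts were 1, 2, and 5, beside 5.83%, 6.83%, and 19.5% of all genes. *Smc4*, a condensin subunit, was at 188, 182, and 199.7 RPKM in scramble and at 306, 317, and 290.2 RPKM in *ptges*-KO samples (0.68, adjusted p = 2.8e-05). *Psrc1*, a spindle gene, had the largest fall of those that passed in *ptgs1*-KO cells, from 4.72, 4.13, and 2.82 RPKM to 1.31, 1.54, and 1.19 RPKM (-1.04, adjusted p = 0.00141). In *ptgs2*-KO cells *Gtse1*, a microtubule-associated gene, rose by 0.52 (adjusted p = 0.0106). *Spag5*, a spindle and kinetochore gene, fell there from 103, 85.6, and 105 RPKM to 57.2, 53.3, and 53.0 RPKM (-0.83, adjusted p = 2.03e-05).

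Upstream of the S-phase genes, 20 genes of the G1 cyclins, CDK4 and CDK6, and the RB family were tested. Against scramble, 1 fell in *ptgs1*-KO cells (*E2f5*, -0.45, adjusted p = 0.0371), 2 rose in *ptgs2*-KO cells, and 2 rose and 1 fell in *ptges*-KO cells. At 5%, 10%, and 15% of the list, these shares were below the 9.26%, 11.1%, and 26.3% of all genes. The *E2f5* call was lost without scramble replicate 2 and without *ptgs1*-KO replicate 3. *Ccnd2* (cyclin D2) was at 66.2, 66.9, and 74.1 RPKM in scramble, 109.7, 97.2, and 91.3 RPKM in *ptgs2*-KO, and 46.3, 38.4, and 35.8 RPKM in *ptges*-KO samples. It rose in *ptgs2*-KO (0.52, adjusted p = 0.00811) and fell in *ptges*-KO cells (-0.77, adjusted p = 0.000235), and the direct difference was -1.29 (adjusted p = 2.98e-06). *Rbbp4*, an RB-binding protein, rose in *ptges*-KO cells by 0.40 (adjusted p = 0.000577).

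Of 7 CDK inhibitors, 4 passed the minimum level. *Cdkn1a* (p21) was at 133, 129, and 137 RPKM in scramble, 97.7, 92.1, and 85.1 RPKM in *ptgs1*-KO, 171, 175, and 171 RPKM in *ptgs2*-KO, and 134, 126, and 133 RPKM in *ptges*-KO samples. It fell in *ptgs1*-KO (-0.53, adjusted p = 0.000203) and rose in *ptgs2*-KO cells (0.37, adjusted p = 0.00366). In *ptges*-KO cells *Cdkn1a* overlapped the scramble samples and did not pass (-0.02, adjusted p = 0.866). *Cdkn1b* (p27) rose in *ptgs1*-KO cells, from 50.1, 47.3, and 45.8 RPKM to 67.6, 66.3, and 51.5 RPKM (0.36, adjusted p = 0.0314), a call that was lost without scramble replicate 2. Neither of the other tested inhibitors passed against scramble in any line.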

How the data were processed

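RNA-seq was performed by the authors with 101 bp paired-end reads, and the deposited values are RPKM to 2 decimals, which the study's methods also call normalized counts. The submitters' processing notes name mm10, and the aligner, counter, and annotation are not given in the sources used here. Column sums were nearly equal, from 878504 to 903881, so scaling to a fixed total is possible and a change in a few abundant transcripts can move all others. Depth was estimated from value steps and carries no counting interval.

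Samples were grouped by their labels. Of 30705 gene names, the 11282 that averaged 1 RPKM or more entered limma 3.58.1 in R 4.3.3 as log2 of RPKM plus a pseudocount of 1 (eBayes with trend, all 12 samples in the model). All 6 pairs of lines were compared, with p-values corrected over the 11282 genes by Benjamini-Hochberg and a threshold of 0.05. Fold changes are on the log2(RPKM + 1) scale. Plots used matplotlib 3.10.9 under Python 3.11.15. Positions are from GENCODE M21 (GRCm38) and promoters from RefSeq (GRCm38.p6).

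The members and the other gene lists were chosen with earlier results of these data known. Members with an adjusted p under 0.05 in at least 1 comparison are named with values, other members by count or range, and from each other list the largest change in each direction against scramble, with *Cdkn2a* added by name. Alternatives were a pseudocount of 0.1, no filter, a minimum mean of 10 RPKM, median-ratio scaling, quantile normalization, and the replicate number as a block. Others were only the lines compared, eBayes without trend, a Tukey test, and each sample left out. The Tukey test is named in the study's methods, but here its p-values were also corrected over all genes tested by Benjamini-Hochberg. The study's methods state no such correction. A further pair, median-ratio scaling without scramble replicate 2 or without *ptgs1*-KO replicate 3, was chosen after the data were seen, as was leaving these samples out for the other gene lists.

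Replicate numbers 1 to 3 were checked for pairing by correlating deviations from the line means across genes. The 3 same-numbered pairs of *ptges*-KO and *ptgs2*-KO samples correlated at 0.112 to 0.566, whereas *ptges*-KO and scramble pairs did so at -0.341 to -0.175, and the labels do not say that a number marks a shared day.

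The fit was tested on simulated data with known changes before use, and there it missed most changes of 0.3 on the log2 scale. Fewer genes were changed in the simulation than passed in any comparison of the data. The share it missed therefore need not hold for these data. The p-values rest on 3 samples a line.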

Additional observations from a re-analysis of the deposited data

Results flagged for a closer look

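Of the members, 6 had samples of *ptgs2*-KO or *ptges*-KO cells wholly above and samples of *ptgs1*-KO cells wholly below the scramble samples. A direct difference between the lines that passed the test (limma, adjusted p) was part of the rule that picked these genes. The adjusted p-values below are therefore no separate evidence. How many of all genes tested met the same rule was not counted, so the number is a description. In *ptgs2*-KO against *ptgs1*-KO cells, *Ccna2* differed by 0.70 on the log2 scale (adjusted p = 2.82e-05), *Cenpe* by 0.69 (adjusted p = 0.000388), *Rrm2* by 0.50 (adjusted p = 0.000808), and *Cdc20* by 0.40 (adjusted p = 0.00163). In *ptges*-KO against *ptgs1*-KO cells, *Ccna2* differed by 0.69 (adjusted p = 2.46e-05), *Bub1* by 0.58 (adjusted p = 0.000839), *Ube2c* by 0.49 (adjusted p = 0.00203), and *Rrm2* by 0.48 (adjusted p = 0.000956). *Ccna2* also passed against scramble in each of these lines. All 8 differences held in all 23 alternatives.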

How the results depend on the processing

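Against scramble, 2 members changed in *ptgs1*-KO, 9 in *ptgs2*-KO, and 17 in *ptges*-KO cells. The counts were 15 and 17 in *ptgs2*-KO and *ptges*-KO against *ptgs1*-KO, and 5 in *ptges*-KO against *ptgs2*-KO cells. Median-ratio scaling gave 4 in *ptgs1*-KO and 26 in *ptges*-KO against scramble and 11 in *ptges*-KO against *ptgs2*-KO cells. Quantile normalization gave 5 in *ptgs1*-KO cells and 10 in *ptges*-KO against *ptgs2*-KO cells. The count in *ptgs1*-KO against scramble was 1 with a minimum mean of 10 RPKM, with only the lines compared in the model, and without the trend. With only the lines compared, it was 8 in *ptgs2*-KO and 11 in *ptges*-KO against *ptgs1*-KO cells, from fewer samples. The Tukey test on untransformed values, with the added correction over all genes tested, gave 1, 2, 4, 5, 8, and 2, in the order above. Leaving out a replicate gave 1 to 3, 1 to 10, 8 to 19, 8 to 16, 11 to 17, and 2 to 7. Median-ratio scaling without scramble replicate 2, chosen after the data were seen, gave 10 in *ptges*-KO against *ptgs2*-KO cells, and without *ptgs1*-KO replicate 3 it gave 11. The cause of these shifts was not tested, apart from the smaller number of samples. With the replicate block the counts were 3, 11, 19, 17, 16, and 6, all within 1.5 times those without it. The block changed 9 calls. Gained were *Mcm6* in *ptgs1*-KO (adjusted p = 0.0475), *Mcm3* (0.0454) and *Kif23* (0.0492) in *ptgs2*-KO, and *Cdc6* (0.0399) and *Cdt1* (0.026) in *ptges*-KO against scramble, *Mcm10* (0.0403) and *Nek2* (0.0484) in *ptgs2*-KO against *ptgs1*-KO, and *Aurkb* (0.0393) in *ptges*-KO against *ptgs2*-KO cells. *Ccnb2* in *ptges*-KO against *ptgs1*-KO cells was lost (0.0531). A pseudocount of 0.1 and median-ratio scaling lost none of the 65 calls, and the Tukey test with its added correction lost 43. The small number of samples, 3 a line, limits all of these calls, and the deposited values carry no counts.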
